A study of Mus musculus with 15 samples.

Results

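Cpa3, Hdc, Mcpt8, Ms4a2, Fcer1a, Prg2 and Epx are 7 genes whose products belong to mast cells, basophils and eosinophils. They were followed in bone marrow progenitors, bone marrow cultures and monocytes of C57Bl/6 mice on 15 Affymetrix 3' expression arrays. The genes were chosen by name, and every probe set that the array annotation assigns to one of them alone was taken. That gave 9 of the 45037 probe sets of the table: 2 each for Hdc and Ms4a2 and 1 for each of the 5 other genes. All 7 are among 18193 genes with a probe set of their own.

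The tested comparisons used wild-type cells sorted at steady state from bone marrow, on 2 arrays a group. Precursors of classical dendritic cells (pre-cDC) were low for CD117, positive for CD135 and CD11c and negative for CD16/32. Common dendritic cell progenitors (CDP) were intermediate for CD117 and positive for CD135. Granulocyte-macrophage progenitors (GMP) were high for CD117, positive for CD16/32 and negative for CD135. Common myeloid progenitors (CMP) were high for CD117 and positive for CD135, and both they and CDP were negative for CD16/32. Single arrays held CD11c+ non-adherent cells and adherent cells from whole bone marrow grown for 7 days in 20 ng/ml GM-CSF, and adherent cells grown for 7 days in 20 ng/ml M-CSF. Single arrays also held bone marrow monocytes after 0, 24 and 48 h in 20 ng/ml GM-CSF, and pre-cDC titled Spl, which the cell type label nevertheless calls bone marrow progenitor. The antibodies that depleted the monocyte fraction included DX5, carried by basophils and natural killer cells, and CD117, carried by mast cells and progenitors. The lineage mix that removed mature cells was named only as Lin for CMP, CDP and pre-cDC, and the recorded GMP gate names none.

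Mast cells, basophils and eosinophils are granulocytes that arise from bone marrow progenitors and store preformed mediators in granules. Mast cells and basophils carry the high-affinity receptor for immunoglobulin E, built of an alpha chain that binds the antibody, a beta chain that amplifies the signal and a gamma chain shared with other Fc receptors. Eosinophils store cationic toxic proteins and a peroxidase. Commitment to these lineages depends on GATA factors, Gata2 for mast cells and basophils and Gata1 for eosinophils.

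Values are intensities, with 1 value per probe set and array, and a level of one probe set is not set against that of another. Arrays came on different scales. Progenitor arrays had medians of 15.95 to 17.44, culture arrays 24.09 to 25.66, monocyte arrays 77.73 to 80.53 and the Spl array 74.17, so differences were formed within a set only. Between both arrays of a group the log2 values correlated across probe sets at 0.9938 to 0.9965. Whether both arrays of a group stem from different animals is not in the labels, and p-values reflect the spread of these samples alone, which may be technical. The order of Kit followed the sort of the bone marrow groups. Kit, which encodes CD117, averaged 36.5 in pre-cDC, 351 in CDP, 995 in GMP and 1219 in CMP. The Spl array read 1105 for Kit, above its median of 74.17. Kit RNA on 1 array does not test a gate on surface CD117. In such bulk samples more cells of a type and more RNA per cell cannot be told apart.

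The genes fell into 2 patterns in the progenitors. Hdc, Cpa3, Mcpt8, Prg2 and both probe sets of Ms4a2 were highest in GMP, while Fcer1a and Epx stayed dim in all 4 groups. Against CMP, 7 of 9 probe sets were higher in GMP and 0 lower, where 4.73% of all probe sets were higher and 7.69% lower (limma, Benjamini-Hochberg adjusted p under 0.05 over the whole table). The median log2 difference was 0.67 over the 9 probe sets and -0.02 over all. Above each of CMP, CDP and pre-cDC stood 6 of the 9, a pattern that 2.99% of all probe sets showed. All log2 differences are on the scale of log2(intensity + 32), which understates changes of dim probe sets.

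**Figure D1:**
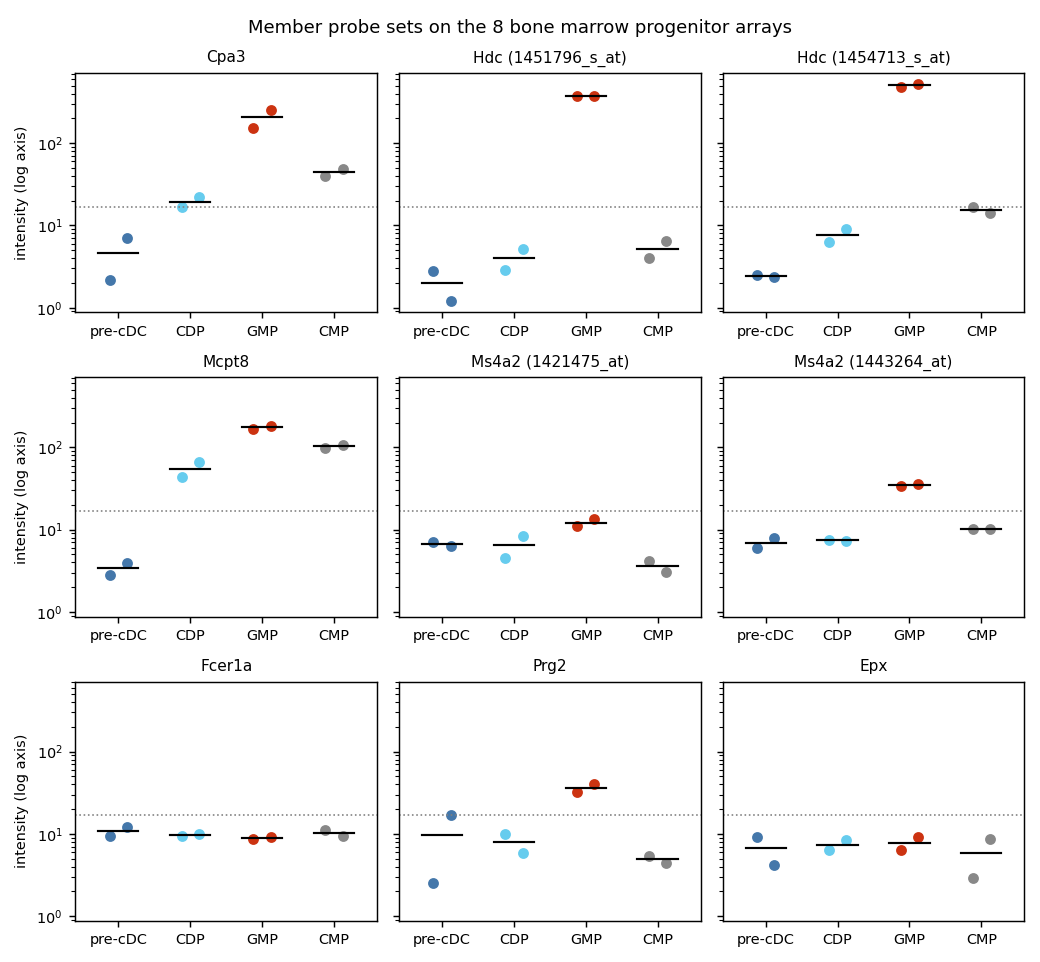
Intensity of the 9 probe sets (log axis) on both arrays of pre-cDC, CDP, GMP and CMP; points are arrays, bars are group means and the dotted line is the mean of the array medians. Hdc stands at 373 to 523 on the GMP arrays and at or below 16.5 on the other 6, while Fcer1a and Epx lie below the dotted line in every group.

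The promoters of the 4 of these genes with an entry in the RefSeq table (build GRCm38.p6) are shown because the genes were together highest in GMP. Each window runs from 250 bases before to 50 bases after the gene's start, on the minus strand, at chr3:20242132-20242431 for Cpa3, chr2:126618629-126618928 for Hdc, chr14:56085148-56085447 for Mcpt8 and chr19:11623670-11623969 for Ms4a2. Capitals mark GATAA, the core of the site that GATA factors bind, or TTATC, the same letters on the other strand.
Cpa3: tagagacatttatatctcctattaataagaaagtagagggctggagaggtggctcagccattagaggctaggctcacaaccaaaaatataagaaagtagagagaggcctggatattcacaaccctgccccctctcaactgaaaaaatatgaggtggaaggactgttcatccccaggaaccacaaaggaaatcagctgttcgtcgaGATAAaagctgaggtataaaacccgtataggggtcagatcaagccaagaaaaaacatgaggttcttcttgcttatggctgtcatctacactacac
Hdc: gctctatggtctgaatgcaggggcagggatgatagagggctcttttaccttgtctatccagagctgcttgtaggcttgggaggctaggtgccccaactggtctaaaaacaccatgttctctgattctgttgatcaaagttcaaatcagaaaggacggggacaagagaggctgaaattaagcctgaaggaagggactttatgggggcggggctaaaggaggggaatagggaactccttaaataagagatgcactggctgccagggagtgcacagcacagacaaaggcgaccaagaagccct
Mcpt8: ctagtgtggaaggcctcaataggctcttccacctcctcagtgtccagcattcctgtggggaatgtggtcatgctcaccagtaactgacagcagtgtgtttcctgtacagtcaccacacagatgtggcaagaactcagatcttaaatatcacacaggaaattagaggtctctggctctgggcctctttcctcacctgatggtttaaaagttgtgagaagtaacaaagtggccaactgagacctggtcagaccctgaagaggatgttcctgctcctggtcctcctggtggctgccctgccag
Ms4a2: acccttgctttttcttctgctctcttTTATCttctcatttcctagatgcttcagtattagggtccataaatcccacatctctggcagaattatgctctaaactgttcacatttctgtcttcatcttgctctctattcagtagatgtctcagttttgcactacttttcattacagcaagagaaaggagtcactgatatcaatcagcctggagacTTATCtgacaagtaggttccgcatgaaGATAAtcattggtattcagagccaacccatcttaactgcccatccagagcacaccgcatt
GATAA on either strand was present once in the Cpa3 window, its first base 45 bases before the start. The Ms4a2 window held 3 matches, at 224, 37 and 10 bases before the start. The Hdc and Mcpt8 windows held 0. Among the 6 members that have a promoter entry, 3 held the letters, the other being Fcer1a, against 25.4% of all 32851 promoters of that length. A match is a run of letters and not a measured binding site.

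Hdc encodes histidine decarboxylase, the enzyme that makes histamine in mast cells and basophils, and it also acts in other myeloid cells. Its probe set 1454713_s_at read 2.52 and 2.39 in pre-cDC, 6.30 and 9.0 in CDP, 485.9 and 522.6 in GMP, and 16.5 and 14.2 in CMP. Both GMP arrays were far above the 6 others, and no other group reached the median of its arrays. The log2 difference from CMP was 3.50 (SE 0.0964, adjusted p = 3.44e-10). The second probe set, 1451796_s_at, read 2.83 and 1.19 in pre-cDC, 2.85 and 5.12 in CDP, 372.6 and 374.1 in GMP, and 3.98 and 6.5 in CMP. Its difference from CMP was 3.44 (SE 0.0920, adjusted p = 2.92e-10), so both probe sets gave the same pattern. CDP differed from GMP by -3.76 and -3.49 for these probe sets (adjusted p = 1.79e-10 and 2.20e-10). Pre-cDC were lower than CMP for 1454713_s_at (-0.46, SE 0.0964, adjusted p = 0.00223), and for 1451796_s_at the difference was -0.13 (adjusted p = 0.328).

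Cpa3 encodes the carboxypeptidase of mast cell granules, also made by basophils and by their progenitors. It read 2.18 and 7.12 in pre-cDC, 16.9 and 21.9 in CDP, 154.9 and 256.0 in GMP, and 40.2 and 48.8 in CMP. No group overlapped another, and the GMP arrays were the farthest apart, with a mean of 205 ± 71.5 (SD, n = 2). GMP exceeded CMP by 1.60 (SE 0.166, adjusted p = 4.19e-05). CDP differed from GMP by -2.18 (adjusted p = 1.57e-06), and pre-cDC differed from CMP by -1.06 (SE 0.166, adjusted p = 0.000231). The steps next to each other in the lower part of the order were less certain. CDP against CMP gave -0.57 (adjusted p = 0.0517). That difference passed under 6 alternatives, with adjusted p values of 0.00794 to 0.0399. It did not pass with 64 added before log2, without the intensity trend or with any 1 array of either group left out. Pre-cDC against CDP gave -0.49 (adjusted p = 0.0492). The call of pre-cDC against CDP was lost whichever of the 4 arrays was left out, with differences of -0.59 to -0.39. Its adjusted p ran from 0.00364 to 0.234 over all alternatives.

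Mcpt8 encodes a serine protease of basophil granules and is widely used as a basophil marker in mice. It read 2.80 and 3.97 in pre-cDC, 44.2 and 66.4 in CDP, 168.7 and 184.3 in GMP, and 97.96 and 107.1 in CMP. The 4 groups did not overlap, and Mcpt8 was above the array median in every group except pre-cDC. All 6 comparisons passed the test. GMP exceeded CMP by 0.63 (SE 0.126, adjusted p = 0.00518), CDP differed from CMP by -0.64 (SE 0.126, adjusted p = 0.00702), and pre-cDC differed from CDP by -1.29 (SE 0.126, adjusted p = 7.95e-06). Without GMP replicate 2 the first gave 0.58 and an adjusted p of 0.0614. Over all alternatives that adjusted p ran from 0.00128 to 0.0614. Without CDP replicate 1 or CMP replicate 2 the difference of CDP from CMP was -0.45 or -0.59 (adjusted p = 0.0524 or 0.0699). Its adjusted p ran from 0.00188 to 0.0699 over all alternatives.

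The chains of the immunoglobulin E receptor gave different patterns. Ms4a2 encodes the beta chain, and its probe set 1443264_at read 5.96 and 7.87 in pre-cDC, 7.57 and 7.29 in CDP, 34.0 and 36.0 in GMP, and 10.2 on both CMP arrays. Only the GMP arrays stood above the median of their array, and they exceeded CMP by 0.67 (SE 0.0721, adjusted p = 5.67e-05). Pre-cDC differed from GMP by -0.78 (adjusted p = 1.89e-06). The other probe set, 1421475_at, stayed below the array median in every group, at 7.06 and 6.38 in pre-cDC, 4.51 and 8.4 in CDP, 11.0 and 13.3 in GMP, and 4.15 and 3.05 in CMP. Its difference of GMP from CMP, 0.31 (SE 0.0687, adjusted p = 0.00996), lost the call without CMP replicate 2 (0.29) or GMP replicate 2 (0.27), and its adjusted p ran from 0.00857 to 0.101 over all alternatives.

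Fcer1a encodes the alpha chain. It read 9.52 and 11.96 in pre-cDC, 9.34 and 9.91 in CDP, 8.6 and 9.03 in GMP, and 11.3 and 9.42 in CMP. All of these lay between the 30.9th and 40.4th percentile of their arrays, and 0 of 6 comparisons passed the test (adjusted p = 0.504 to 0.916). The difference of GMP from CMP was -0.05 (SE 0.0677). Fcer1g, the gene of the shared gamma chain and one of the other mast cell and eosinophil genes described further on, was bright throughout. It averaged 4119 in pre-cDC, 1874 in CDP, 1078 in GMP and 658 in CMP, and pre-cDC exceeded CMP by 2.59 (SE 0.105, adjusted p = 1.93e-09).

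Prg2 encodes the major basic protein of eosinophil granules. It read 2.5 and 17.1 in pre-cDC, 9.94 and 5.79 in CDP, 32.2 and 40.5 in GMP, and 5.37 and 4.47 in CMP. Both GMP arrays lay above all others, and the pre-cDC arrays were far apart. GMP exceeded CMP by 0.89 (SE 0.133, adjusted p = 0.000752), CDP differed from GMP by -0.78 (adjusted p = 0.000972) and pre-cDC differed from GMP by -0.73 (adjusted p = 0.000662). Without pre-cDC replicate 1 the last value was -0.47, still called. Epx encodes eosinophil peroxidase and read 9.19 and 4.15 in pre-cDC, 6.34 and 8.4 in CDP, 6.36 and 9.22 in GMP, and 2.87 and 8.70 in CMP. The 4 groups overlapped, and 0 of 6 comparisons passed (adjusted p = 0.668 to 0.934).

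**Figure D2:**
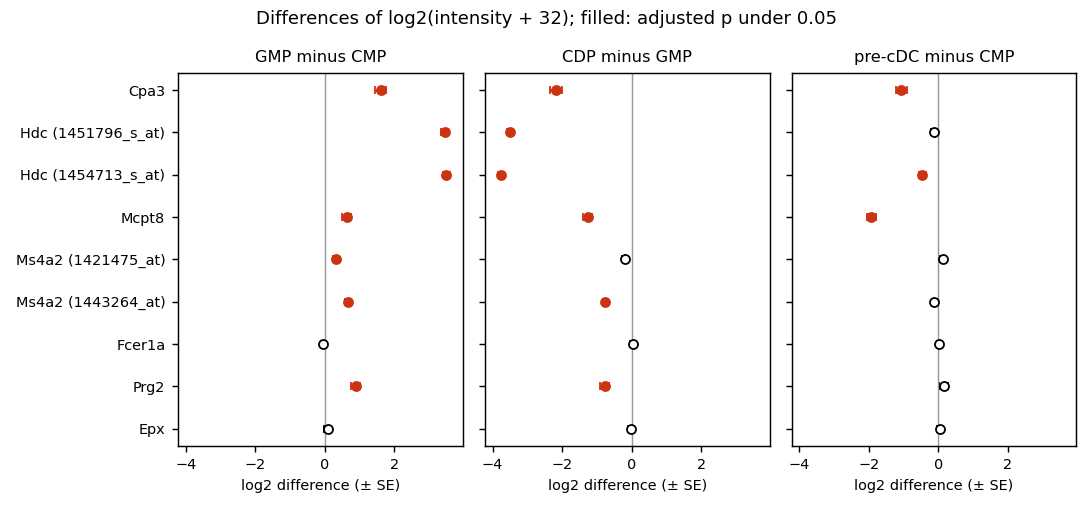
Log2 difference with its standard error for the 9 probe sets in GMP minus CMP, CDP minus GMP and pre-cDC minus CMP; filled points passed the adjusted threshold. In GMP minus CMP 7 points are filled and lie right of 0, from 0.31 for Ms4a2 1421475_at to 3.50 for Hdc 1454713_s_at.

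Counted by comparison, 6 of the 9 probe sets were lower in CDP than in GMP, where 8.62% of all probe sets were lower, and 7 were lower in pre-cDC than in GMP, where 17.1% were. Fewer were called where GMP was not involved, at numbers near the shares of all probe sets called in either direction. Those shares were 8.97% for CDP against CMP, 24.6% for pre-cDC against CDP and 34.1% for pre-cDC against CMP. CDP were lower than CMP for 1 probe set, Mcpt8 (3.72% of all), pre-cDC were lower than CDP for 2, Mcpt8 and Cpa3 (12.9% of all), and pre-cDC were lower than CMP for 3, those of Mcpt8, Cpa3 and Hdc 1454713_s_at (16.6% of all). Mcpt8 and Cpa3 were the 2 of 9 that were lower in pre-cDC than in each other group (9.12% of all). In these 5 comparisons 0 of the 9 probe sets were higher, where 15.3%, 21.3%, 5.24%, 11.7% and 17.5% of all were. These comparisons share arrays and are not independent of each other.

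Over the 8 progenitor arrays the genes whose log2 values followed each member most closely were taken from 2991 genes that span at least 2-fold between groups. These correlations rest largely on the 4 group levels and are given as a description. Hdc was closest to Fcgr3 (r = 0.9993), Gda (r = 0.9991) and Hsd11b1 (r = 0.9984). Fcgr3 encodes CD16, on which GMP were sorted, and averaged 9.53 in pre-cDC, 22.1 in CDP, 1752 in GMP and 35.6 in CMP. Ms4a2 1443264_at was closest to Fcgr3 (r = 0.997), followed by Hdc itself and Celsr3 (both r = 0.9967). Cpa3 was closest to Nav2 (r = 0.9917), Rab3gap2 (r = 0.9909) and Nit2 (r = 0.9886). Mcpt8 was closest to Csf3r, the receptor gene of G-CSF (r = 0.998), Acp6 (r = 0.9978) and Farsa (r = 0.9969), and Prg2 to Fcnb (r = 0.9438), Tspoap1 (r = 0.9333) and Chil3 (r = 0.9281). Csf3r averaged 33.0 in pre-cDC, 99.9 in CDP, 246 in GMP and 175 in CMP, the same order of groups as Mcpt8.

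Other genes of mast cells, basophils and eosinophils were read from a list of 62 names, of which 50 were measured. Against CMP, 7 of them were higher in GMP and 9 lower, where 12.4% of all probe sets passed in either direction, and the median of the list was 0.01 against -0.02 over all probe sets. Siglecf, which encodes a lectin of eosinophils and of some macrophages, differed by 1.21 (SE 0.108, adjusted p = 1.22e-05), with means of 136 in GMP and 40.5 in CMP. Ctsg, a granule protease gene shared with neutrophils, averaged 6864 in GMP and 2542 in CMP (1.42). Cebpa, a factor gene of granulocyte development, differed by 0.87, and Csf2rb, the common receptor chain gene of IL-3, IL-5 and GM-CSF, by 0.77. Prg3, a homologue of Prg2 named here after its values were seen, read 16.6 and 14.1 in GMP and 5.54 and 1.0 in CMP. It also passed the test, though its GMP values lay near the medians of those arrays, 16.1 and 15.95. The list genes Il5ra, Ccr3 and Alox15 were not called, and all 3 read below the array median on every GMP and CMP array.

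Among the list genes lower in GMP were Gfi1b, a factor gene of red cells and platelets (-1.17, adjusted p = 0.0179), the signalling adaptor gene Lat2 (-1.04), the activation marker gene Cd69 (-0.89) and the phospholipase gene Plcg1 (-0.81). The call of Gfi1b was lost without CMP replicate 1 (-0.80) or GMP replicate 1 (-0.60). Gata2, named outside the rule because it is the lineage factor of mast cells, read 70.4 and 106.1 in GMP against 144.8 and 134.0 in CMP, and passed the test as lower. In CDP against CMP 7 list genes were higher and 6 lower, where 8.97% of all probe sets were called. Gata2 differed in CDP by -1.71 (SE 0.134, adjusted p = 9.34e-06), at 17.3 and 23.3 in CDP, and Gata1 by -1.53 (SE 0.247, adjusted p = 0.00184). Transcripts of both GATA genes were lower in CDP than in CMP.

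Of the list, 9 genes were higher and 12 lower in CDP than in GMP, with 23.9% of all probe sets called. Lat2 differed by 1.87 and Csf2rb2 by 1.68, and Ctsg differed by -1.74 and Siglecf by -1.45. In pre-cDC 13 list genes were higher and 5 lower than in CDP (24.6% of all called), 15 and 15 against GMP (38.4%), and 15 and 12 against CMP (34.1%). Kit differed between pre-cDC and CMP by -4.19 (SE 0.116), a gene whose product set the sort.

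Some markers of other cells also differed between GMP and CMP, where 4.73% of all probe sets were higher in GMP and 7.69% lower. All 5 primary granule genes, the list gene Ctsg among them, were higher in GMP than in CMP. Their summed intensity was 29569 to 30102 in GMP and 10581 to 11250 in CMP. Of 6 neutrophil genes 4 were higher, with sums of 2989 to 3531 in GMP and 186 to 227 in CMP. Of 5 lymphoid genes 1 was higher, Nkg7, a gene of cytotoxic granules, at 1821 in GMP and 387 in CMP. Of 7 erythroid and 5 megakaryocyte genes 0 passed in either direction, with erythroid sums of 2543 to 4550 in GMP and 4063 to 5369 in CMP and megakaryocyte sums of 125 to 139 in GMP and 106 to 135 in CMP. Of other lists, 4 of 5 early progenitor genes and 3 of 6 classical dendritic cell genes were lower in GMP, and 1 of 6 monocyte and macrophage genes was higher. The dendritic cell genes lower in GMP included Flt3, at 33.8 in GMP and 1198 in CMP. Flt3 encodes CD135, on which these groups were sorted. The erythroid gene Hba-a1 read 1.0 on 7 of the 8 progenitor arrays and 5.42 on 1 GMP array, and Alas2 was also dim. Other erythroid genes were above the array median in both groups. Car1 read 966.7 and 1825 on GMP replicates 1 and 2, and 1895 and 1530 in CMP. Car2 read 1384 and 2272 in GMP and 2812 and 2219 in CMP. Klf1 read 108.4 and 250.2 in GMP and 403.0 and 185.8 in CMP. Epor and Gata1 were likewise higher on GMP replicate 2 than on replicate 1. The part of all these markers in the differences of the 9 probe sets was not tested.

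In the cultures the same genes gave another picture, with 1 array a group and therefore no test. Prg2 was the 1 gene of the 7 with a difference above 4-fold on the scale of log2(intensity + 32). It read 4.29 in CD11c+ cells grown in GM-CSF, 850.5 in adherent cells grown in GM-CSF and 79.7 in adherent cells grown in M-CSF. Those values lay at the 15.7th, 89.0th and 64.3rd percentile of their arrays. The CD11c+ cells differed from the GM-CSF adherent cells by -4.60, and the GM-CSF adherent cells were higher than the M-CSF adherent cells by 2.98. The rule for counting a member was a difference of 4-fold or more, with the higher value above the median of its array. In the first of these comparisons 1 of 9 probe sets was counted as lower (0.0777% of all), and in the second 1 was counted as higher (0.697% of all), both times Prg2.

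Epx was also highest in GM-CSF adherent cells, though below 4-fold on the scale of log2(intensity + 32). It read 8.69 in CD11c+ cells, 52.8 in GM-CSF adherent cells and 3.59 in M-CSF adherent cells, with differences of -1.06 and 1.25 for the comparisons given for Prg2. With 8 added in place of 32, 2 members were counted in GM-CSF against M-CSF adherent cells. Cpa3 read 16.7, 51.7 and 54.3 and Mcpt8 read 15.8, 45.5 and 41.5, in the order CD11c+ cells, GM-CSF adherent cells and M-CSF adherent cells. Both were above the array median in the adherent cells of either culture and below it in CD11c+ cells. Both Hdc probe sets read between 1.0 and 12.4, both Ms4a2 probe sets between 3.47 and 19.1, and Fcer1a between 9.6 and 26.8. On the CD11c+ array 0 of the 9 probe sets lay above the median, against 4 on each adherent array. Cpa3, Mcpt8 and Prg2 were above it on both adherent arrays, Epx on the GM-CSF array only and Fcer1a on the M-CSF array only. Between CD11c+ cells and M-CSF adherent cells 0 of the 9 were counted (1.74% of all), with Prg2 at -1.62.

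Other eosinophil and mast cell genes did not all follow Prg2. In GM-CSF adherent cells against M-CSF adherent cells 2 of the 50 list genes were counted as higher and 2 as lower, where 0.919% of all probe sets were counted. Siglecf read 435.8 against 51.2, and Alox5, the gene of a leukotriene-forming lipoxygenase, read 621.3 against 43.6. Ccr3, the eotaxin receptor gene of eosinophils, read 12.2 against 214.6, and Hpgds, the gene of a prostaglandin D synthase, read 234.4 against 1413. In CD11c+ cells against GM-CSF adherent cells 2 were counted as higher and 0 as lower (0.411% of all probe sets). Kit read 354.2 against 40.7 and the tryptase gene Tpsg1 read 289.3 against 32.5.

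Neutrophil markers were counted together with Prg2 only between CD11c+ cells and GM-CSF adherent cells. All 6 were counted as lower in CD11c+ cells than in GM-CSF adherent cells (0.0777% of all probe sets). Their summed intensities were 1665 against 23046, and the sum was 10511 in M-CSF adherent cells. Between the adherent arrays, where Prg2 was counted, 0 of 6 were counted (0.919% of all probe sets). Between CD11c+ cells and M-CSF adherent cells 5 of 6 were counted as lower (0.533% of all probe sets). Prg2 was not counted there, at -1.62. Camp was lowest in CD11c+ cells, at 1.0. Their part in the values of Prg2 was not tested.

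**Figure D3:**
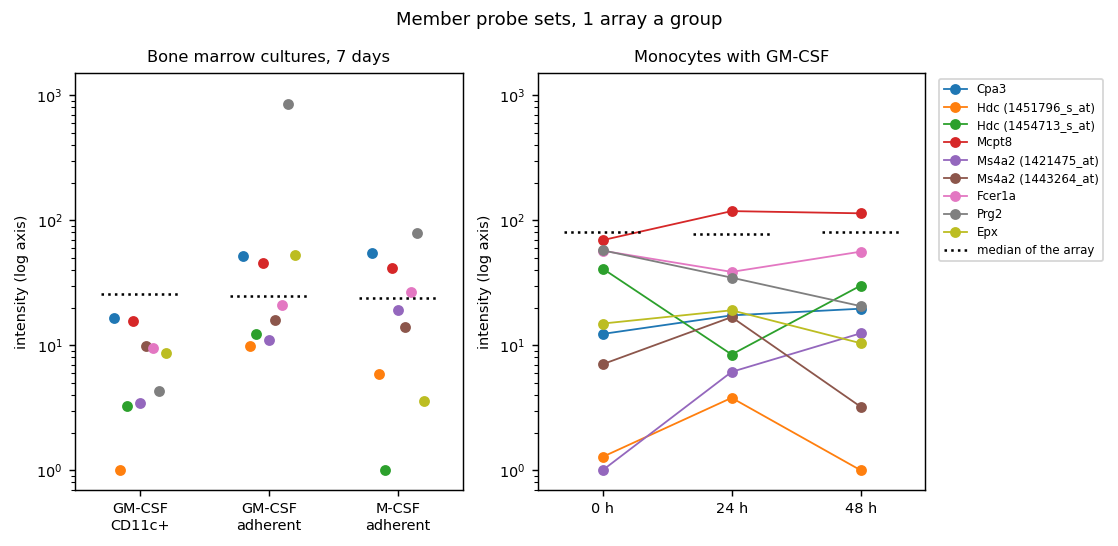
Intensity of the 9 probe sets (log axis) in the 7-day cultures (left) and in monocytes after 0, 24 and 48 h with GM-CSF (right), 1 array a group; dotted bars are array medians. Prg2 stands at 850.5 in GM-CSF adherent cells, and in the monocytes Mcpt8 at 24 and 48 h is above the array median.

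In monocytes 0 of the 9 probe sets were counted in any of the 3 comparisons of times, where 3.1% of all probe sets were counted for 24 h against 0 h, 0.469% for 48 h against 24 h and 3.41% for 48 h against 0 h. Mcpt8 read 69.3 at 0 h, 118.4 at 24 h and 113.7 at 48 h, with a difference of 0.57 for 24 h against 0 h, and lay above the array median at the later times. Prg2 read 57.6, 34.8 and 20.6 at 0, 24 and 48 h and Fcer1a read 57.1, 38.7 and 56.1, all below the median. Cpa3 stayed between 12.3 and 19.6 and Epx between 10.4 and 19.1. The Hdc probe sets disagreed, 1454713_s_at reading 41.1, 8.44 and 30.0 and 1451796_s_at reading 1.28, 3.80 and 1.0 at 0, 24 and 48 h. Neither reached the median of any monocyte array.

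Among the 50 list genes 3 were counted as higher and 1 as lower at 24 h against 0 h, where 3.1% of all probe sets were counted in either direction. At 48 h against 0 h they numbered 5 and 1 (3.41% of all). The cytokine gene Il6 read 21.7, 402.5 and 198.0 at 0, 24 and 48 h, and Csf2rb2, a receptor chain gene for IL-3, read 2117, 13484 and 12362. Siglecf read 131.6, 461.3 and 913.3 and was counted at 48 h against 0 h but not at 24 h against 0 h. Kit read 7.48, 141.4 and 139.6. Ctsg read 6315, 70.2 and 98.8. The primary granule markers, Ctsg among them, moved over the same times, with sums of 23572, 1112 and 841 at 0, 24 and 48 h. Of these 5 markers 4 were counted as lower at 24 h against 0 h, Ctsg included.

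On the Spl array, which has a scale of its own and enters no difference, Cpa3 read 91.4, at the 56.2nd percentile, and the Hdc probe sets read 86.9 and 70.3, at the 54.8th and 48.2nd. Mcpt8 read 21.8, Prg2 38.4, Fcer1a 22.8 and Epx 19.1, at the 11.95th, 27.65th, 12.9th and 9.43rd percentile. The Ms4a2 probe sets 1421475_at and 1443264_at read 30.6 and 21.96, at the 20.4th and 12.1th percentile. On the bone marrow pre-cDC arrays the Hdc probe sets lay at or below the 5.36th percentile and Cpa3 at the 3.2nd and 24.2nd. By percentile, not all members stood higher on the Spl array. On all 8 bone marrow progenitor arrays Fcer1a lay at or above the 30.9th percentile and Ms4a2 1443264_at at or above the 19.7th, both above their place on the Spl array. The Spl array held 0 values at or below 1, against 265 to 312 on each bone marrow progenitor array. What this floor does to the percentiles of dim probe sets was not tested.

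**Figure D4:**
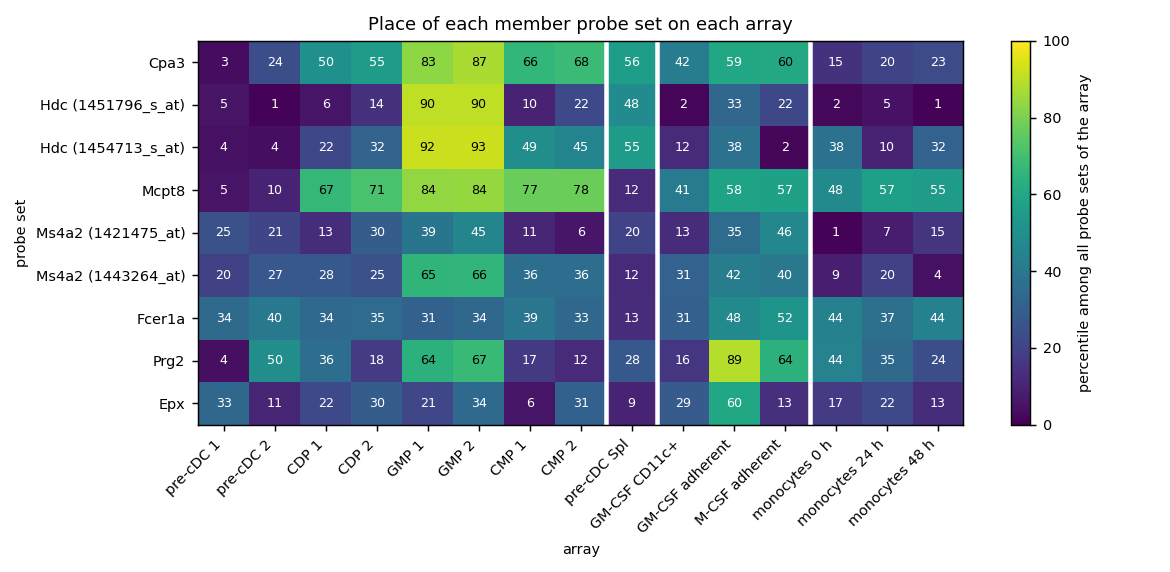
Percentile of each of the 9 probe sets among all probe sets of the same array, for all 15 arrays, with white bars between sets of arrays on different scales. Hdc reaches the 90th percentile or above in GMP only, and Prg2 is highest on the GM-CSF adherent array, at the 89th.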

How the data were processed

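RNA of 15 mouse samples was biotin-labelled with the 3' IVT Express Kit, per the labels' protocols, and hybridised in 1 colour. Intensities were deposited on a linear scale. Background correction, probe summary and scaling by the authors: not given in the sources used here. Detection calls were not used. Their number of arrays limits the precision. Columns were matched to samples by identifier, and 0 were left without a sample. The annotation names 1 gene for 34945 of 45037 probe sets, several for 932 and no gene for 9160. Symbols were updated by gene identifier to the RefSeq annotation for 34741 probe sets.

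Intensities were transformed as log2(intensity + 32). The 6 comparisons of progenitors came from a linear model of 8 arrays in 4 groups (limma 3.58.1, moderated with an intensity trend, under R 4.3.3), with 4 residual and 12.2 total degrees of freedom, without a filter on dim probe sets. The two-sided p-values were adjusted by the Benjamini-Hochberg method over 45037 probe sets, and the threshold was 0.05. On simulated data with 200 changed probe sets the step was tested and recovered the changes. Recovery of differences as small as that of Ms4a2 1421475_at between GMP and CMP (0.31) was not tested. Single arrays were compared by a 4-fold rule without a test. List genes were read by the brightest of their probe sets on average over 15 arrays.

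The 7 genes and all lists were chosen with earlier results of these data known. Named were all probe sets of the 7 genes, up to 4 called list genes in each direction, and for each member the 3 genes with the highest correlation. Those of Fcer1a and Epx, whose group levels span less than 0.1 on the log2 scale, are not given. Alternatives changed the value added before log2, the scaling, a filter, the trend, the arrays fitted, the probe sets used, a replicate block and each array in turn. Python 3.11.15 and matplotlib 3.10.9 made the figures.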

Additional observations from a re-analysis of the deposited data

How the results depend on the processing

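Of 26 member calls in the progenitor comparisons, 21 held in every alternative fitted, and 0 of 305 refits reversed a direction. The 5 others, 2 of Mcpt8, 2 of Ms4a2 1421475_at and 1 of Cpa3, lost the call in 18 refits. Pre-cDC against GMP for Ms4a2 1421475_at (-0.19, adjusted p = 0.0461) kept it in 3 of 10. The value added before log2 moved sizes most: the difference of Hdc 1451796_s_at between GMP and CMP was 2.66 to 4.85 and that of Prg2 0.54 to 1.77. Only 6 of the 9 probe sets passed the filter on the median.

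For CDP against CMP the members called numbered 1, against 3 with 8 added and 2 each with quantile normalization, the median filter, 1 probe set per gene, the 2 groups fitted alone and the replicate block, where Cpa3 joined Mcpt8; leaving out 1 array gave 0 to 1. For pre-cDC against CDP they numbered 2, against 1 with 64 added, without the trend and in each fit without 1 array (1 to 1). The replicate block left the other 5 member counts as they were. The titles number the progenitor arrays WT1 and WT2 without saying what a number shares. Deviations of same-numbered arrays correlated at 0.11 to 0.332 in 5 pairs of groups and at 0.0135 for CMP with GMP, so a shared source was neither stated nor shown for all groups, and the block stayed an alternative. Whole-table counts with 1 probe set per gene, where 18193 were tested, were 3049 for GMP against CMP, 2626 for CDP against CMP, 5090 for CDP against GMP, and 6041, 8013 and 7670 for pre-cDC against CDP, GMP and CMP. Without 1 array they were 2535 to 3808, 1859 to 3410 and 6623 to 9835 in the first 3 of these, against 5593, 4039 and 10750; a group then keeps 1 array, assumed to vary like the others.

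In the cultures the members counted were 2 at 2-fold and 2 with 8 added for GM-CSF against M-CSF adherent cells, 2 at 2-fold for CD11c+ against GM-CSF adherent cells, and 1 under either setting for CD11c+ against M-CSF adherent cells. Whole-table counts in these comparisons were 659, 351 and 1283 with 8 added and 1684, 1163 and 3164 at 2-fold. In monocytes they were 5369, 1267 and 5196 at 2-fold for 24 h against 0 h, 48 h against 24 h and 48 h against 0 h, and 353 for the second with 8 added. With 64 added, Kit and Tpsg1 in CD11c+ cells, Ccr3 and Siglecf in the cultures and Kit and Il6 in monocytes missed 4-fold in at least 1 comparison. The cause of these moves was not tested, beyond the fewer probe sets, the lower fold and the fewer arrays that the settings themselves bring. Values below the array median limit what Fcer1a, Epx and Ms4a2 1421475_at can show.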
